A study of Mus musculus with 6 samples.

Results

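The genes described here encode the BCL2 family of proteins, which decide whether the outer mitochondrial membrane of a cell stays closed or is opened. Of 10 symbols chosen by name (Mcl1, Bcl2, Bcl2l1, Bax, Bak1, Bcl2l11, Bid, Bmf, Bbc3 and Pmaip1), 9 had a probe set annotated to that gene alone, among 19937 genes represented in this way. Bax was not analysed here. Each of the 9 had a single such probe set, so each gene rests on 1 value per array.

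The cells were granulocytes of C57BL/6J mice, measured on 6 Affymetrix Mouse Gene 1.0 ST arrays, 3 labelled caffeine-plus and 3 labelled caffeine-minus. Per the labels' protocols, cultures were given 15 mM caffeine for 4 hours and washed 2 times, and were then kept for 4 hours with actinomycin D at 2 µg/ml, which blocks transcription, together with caffeine in one plate and without it in the other. By that account caffeine came first and actinomycin D second in every culture, and the groups differ in the presence of caffeine while transcription was blocked. The source label of the caffeine-minus samples, however, says that they had no caffeine, in which case the groups also differed in the first 4 hours. The labels do not settle this, so the comparison below is of caffeine-plus with caffeine-minus arrays and not of caffeine at a given step. The series used caffeine as an inhibitor of nonsense-mediated decay, and the labels do not state how the granulocytes were obtained, whether the arrays of a group came from separate animals or cultures, or whether the cells stayed alive. The p-values thus reflect how these 6 arrays spread, and that spread may be technical.

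Survival members of the family (MCL1, BCL2 and BCL-XL, the product of Bcl2l1) hold back the effectors BAX and BAK, which form pores in the mitochondrial outer membrane and release cytochrome c. The BH3-only members, among them BIM (Bcl2l11), BID, BMF, PUMA (Bbc3) and NOXA (Pmaip1), bind the survival proteins or activate the effectors. Mature granulocytes are short-lived cells that depend on MCL1, a protein with a rapid turnover whose mRNA is also short-lived. BIM is a main driver of their death. How mature the cells used here were was not tested.

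In the caffeine-plus cells, the mRNAs of the death gene Bcl2l11 and the survival gene Mcl1 were both higher, by 2.51-fold and 1.63-fold. The survival gene Bcl2l1, the effector gene Bak1 and the BH3-only gene Bid were lower, by 1.47-fold, 1.54-fold and 1.77-fold. Bcl2, Bmf, Bbc3 and Pmaip1 did not pass the test. In all, 2 of 9 members rose and 3 of 9 fell (limma with Benjamini-Hochberg adjustment over all genes, threshold 0.05). Over all genes tested, 37.9% were called in either direction, 16.2% higher and 21.7% lower. Calls were more frequent among brighter genes: above the median level 62.6% were called, and 5 of the 8 members above it were, so the number of members called was close to that background. The median difference of the 9 members was -0.15 on the log2 scale against -0.04 over all genes. In all 5 called members the 3 arrays of one group lay entirely above the 3 of the other, which held for 45.9% of all genes (19.5% with the caffeine-plus arrays higher and 26.3% with them lower), and in the other 4 the groups overlapped.

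The sequences upstream of the starts of the members with the largest rises and the largest fall are shown first. Both groups ended in actinomycin D, and promoter activity was not measured. The windows are the 250 bases before a RefSeq gene start in GRCm38.p6, for Mcl1 (chr3:95658471-95658720, plus strand), for the start of Bcl2l11 at chr2:128125788-128126037 and its other listed start at chr2:128127325-128127574 (both plus strand), and for Bid (chr6:120916825-120917074, minus strand, written 5′ to 3′ of the gene). Capitals mark a match to 1 of 5 motifs that were searched on both strands: TGACGTCA (the full cAMP response element), TGACG (its core, contained in it), GTAAACA (a forkhead site), CACGTG (an E-box) and TTCCNNGAA (a STAT site).
Mcl1: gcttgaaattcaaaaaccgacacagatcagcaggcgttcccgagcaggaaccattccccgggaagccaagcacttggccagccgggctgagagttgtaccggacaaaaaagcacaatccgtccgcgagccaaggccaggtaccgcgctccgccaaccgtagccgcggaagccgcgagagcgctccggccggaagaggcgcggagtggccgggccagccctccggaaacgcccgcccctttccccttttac
Bcl2l11, first start: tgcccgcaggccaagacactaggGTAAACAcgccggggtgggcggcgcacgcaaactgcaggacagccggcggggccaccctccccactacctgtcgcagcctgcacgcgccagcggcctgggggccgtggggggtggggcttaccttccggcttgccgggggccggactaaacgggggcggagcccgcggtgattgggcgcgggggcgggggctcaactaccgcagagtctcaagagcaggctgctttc
Bcl2l11, second start: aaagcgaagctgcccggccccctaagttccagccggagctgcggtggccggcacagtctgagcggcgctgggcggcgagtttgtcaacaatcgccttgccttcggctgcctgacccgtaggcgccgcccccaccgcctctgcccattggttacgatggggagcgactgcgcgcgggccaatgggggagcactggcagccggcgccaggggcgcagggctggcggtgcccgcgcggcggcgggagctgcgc
Bid: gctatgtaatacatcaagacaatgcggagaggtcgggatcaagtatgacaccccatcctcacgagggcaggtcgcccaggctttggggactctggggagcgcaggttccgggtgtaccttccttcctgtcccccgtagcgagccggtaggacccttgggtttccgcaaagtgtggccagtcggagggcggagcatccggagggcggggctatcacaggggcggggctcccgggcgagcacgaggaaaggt
The first Bcl2l11 window held GTAAACA, with 220 bases between it and the start. The same motif, with 160 bases between it and the start, lay upstream of a start of Bbc3, a member that did not pass the test. Of 32851 such upstream windows in the table, 3.17% held that motif. The other shares were 1.55% for TGACGTCA, 17.8% for TGACG, 6.02% for CACGTG and 4.06% for TTCCNNGAA. No match to the 5 motifs was found in the windows of Mcl1 and Bid or in the second of Bcl2l11. A match is a description of letters and not a site of binding. Windows were looked up for the listed symbols other than Pmaip1, and all 9 had at least 1. Elsewhere in the family TGACG matched upstream of Bcl2, Bmf and Bbc3 and CACGTG upstream of Bax and Bbc3, while TGACGTCA and TTCCNNGAA matched no window of these genes.

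Among the survival genes, Mcl1 and Bcl2l1 differed in opposite directions and Bcl2 did not pass the test. The log2 value of Mcl1 was 11.48, 11.47 and 11.49 on the caffeine-plus arrays and 10.88, 10.79 and 10.67 on the caffeine-minus arrays. The caffeine-plus arrays lay within 0.02 of one another and all stood above the caffeine-minus arrays, which were more spread. The group means were 11.48 ± 0.01 (SD, n = 3) and 10.78 ± 0.10 (SD, n = 3), a log2 difference of 0.70 ± 0.06 (SE, limma adjusted p = 6.2e-08), and 1202 genes had a larger rise. Bcl2l1, whose spliced forms include the survival protein BCL-XL, read 7.76, 7.71 and 7.67 on the caffeine-plus arrays against 8.28, 8.26 and 8.25 on the caffeine-minus arrays. Here the caffeine-minus arrays were the tight group, and every caffeine-plus array lay below them. The log2 difference was -0.55 ± 0.08 (SE, limma adjusted p = 2.6e-05). The probe set does not separate the long survival form from the short death-promoting form of this gene. Bcl2, the founding survival gene, read 7.47, 7.56 and 7.63 against 7.60, 7.49 and 7.64. These ranges overlapped almost fully, with a log2 difference of -0.02 whose 95% interval ran from -0.21 to 0.17 (limma adjusted p = 0.89). Its sign turned after quantile normalization (0.02) and with arrays centred on their medians (0.04).

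**Figure D1:**
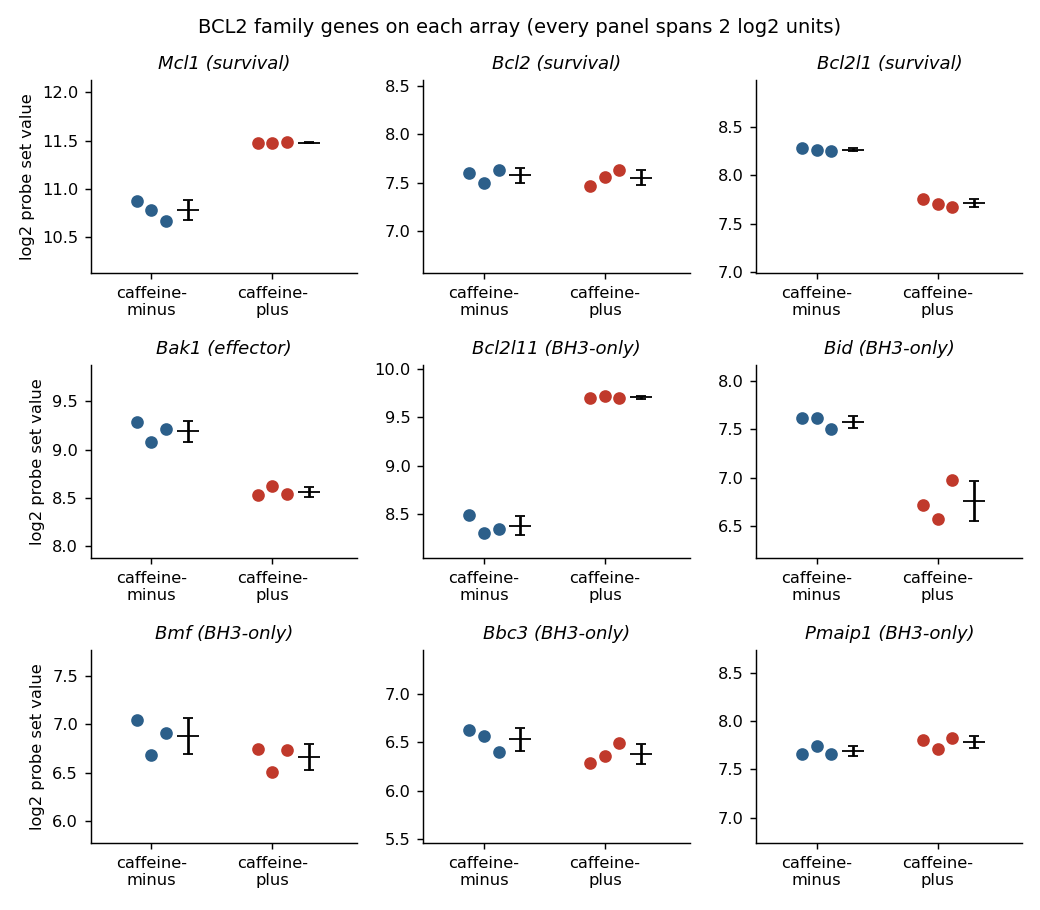
Log2 probe set value of each of the 9 genes on each array (points; blue caffeine-minus, red caffeine-plus), with the group mean and SD (n = 3) as black bars; every panel spans 2 log2 units and its axis does not start at 0. Bcl2l11 and Mcl1 lie higher on all 3 caffeine-plus arrays, Bcl2l1, Bak1 and Bid lie lower on all 3, and the other 4 genes overlap between groups.

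Of the pore-forming effectors only Bak1 was measured. It read 8.53, 8.62 and 8.54 on the caffeine-plus arrays and 9.28, 9.07 and 9.21 on the caffeine-minus arrays. All 3 caffeine-plus arrays were lower, and the gap between the groups was wider than the range within either. The log2 difference was -0.62 ± 0.08 (SE, limma adjusted p = 5.9e-06).

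The BH3-only genes went different ways. Bcl2l11, which encodes BIM, an activator of BAX and BAK that also binds all the survival proteins, read 9.69, 9.72 and 9.70 on the caffeine-plus arrays against 8.49, 8.30 and 8.34 on the caffeine-minus arrays. The caffeine-plus arrays lay within 0.03 of one another and more than 1 log2 unit above every caffeine-minus array. Its means were 9.70 ± 0.01 (SD, n = 3) and 8.38 ± 0.10 (SD, n = 3), a log2 difference of 1.33 ± 0.07 (SE, limma adjusted p = 1.1e-09). Only 181 of the 19937 genes had a larger rise, and among the 9 members this was the largest difference in either direction. Bid, whose protein links death receptors to mitochondria after cleavage by caspase 8, read 6.72, 6.57 and 6.98 against 7.61, 7.62 and 7.50. All caffeine-plus arrays were lower, with the highest of them, array 3, still 0.52 below the lowest caffeine-minus array. The log2 difference was -0.82 ± 0.11 (SE, limma adjusted p = 1.2e-05), and 1025 genes had a larger fall.

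For the other BH3-only genes the groups overlapped. Bmf, whose protein is held at the cytoskeleton, read 6.74, 6.50 and 6.73 against 7.05, 6.68 and 6.91, with a log2 difference of -0.22 and a 95% interval from -0.46 to 0.02 (limma adjusted p = 0.16). It passed, as a fall by 0.32, when caffeine-minus array 2 was left out (limma adjusted p = 0.044), and its adjusted p lay between 0.044 and 0.49 over 16 alternatives. Bbc3, the p53 target that encodes PUMA, read 6.29, 6.36 and 6.49 against 6.63, 6.57 and 6.40, a log2 difference of -0.15 with an interval from -0.37 to 0.07 (limma adjusted p = 0.32). Pmaip1, which encodes NOXA, an antagonist of MCL1, read 7.81, 7.71 and 7.82 against 7.66, 7.74 and 7.66, a log2 difference of 0.09 with an interval from -0.09 to 0.27 (limma adjusted p = 0.47). These intervals leave out differences as large as that of Bcl2l11, and a p above the threshold does not show that the levels were equal.

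**Figure D2:**
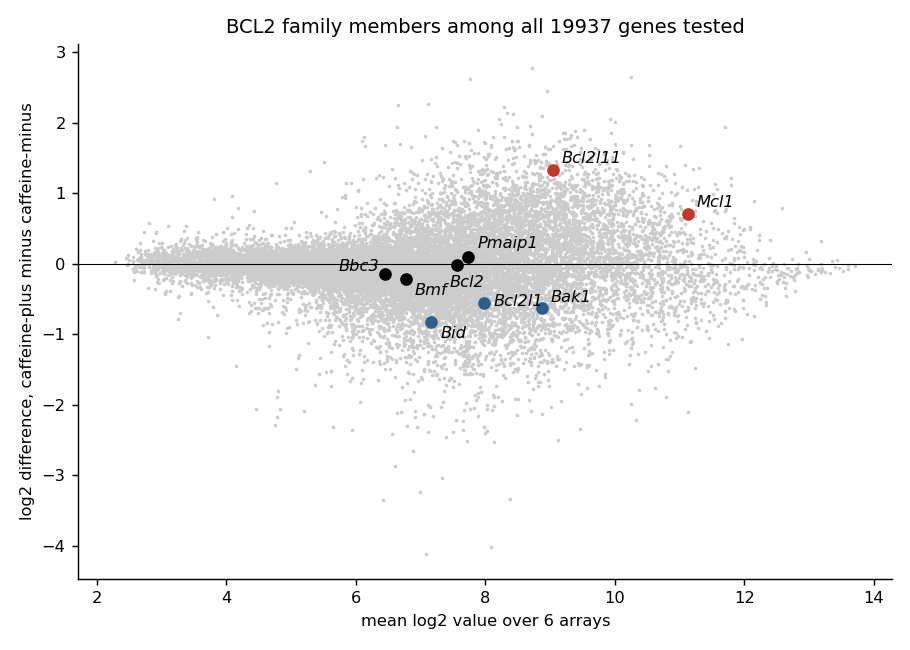
Log2 difference (caffeine-plus minus caffeine-minus) against the mean log2 value over 6 arrays for all 19937 genes (grey), with the 9 members marked (red higher, blue lower, black not past the threshold). Bcl2l11 at 1.33 lies in the upper part of the cloud, whose highest difference is 2.77, and Bid at -0.82 inside its lower part.

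A log2 ratio of a pair of genes on the same array does not move when all log2 values of an array shift by a constant. It can move under quantile normalization, which changed the log2 difference of Mcl1 from 0.70 to 0.75 and that of Bcl2l11 from 1.33 to 1.26. These pairs were chosen after their values were seen and are given without a test. Mcl1 minus Bcl2l11 was 1.79, 1.75 and 1.79 on the caffeine-plus arrays and 2.39, 2.48 and 2.33 on the caffeine-minus arrays, so Bcl2l11 gained on Mcl1 by 0.62 (means 1.78 ± 0.02 and 2.40 ± 0.08, SD, n = 3) although both rose. Mcl1 minus Bcl2l1 was 3.77 ± 0.05 against 2.51 ± 0.09 (SD, n = 3), a shift of 1.26 between the survival genes. Bcl2l1 minus Bak1 was -0.85 ± 0.07 against -0.92 ± 0.10 (SD, n = 3), and the arrays of the groups overlapped. Such ratios compare change and not amount, since probe sets differ in how strongly they bind.

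Some members lie over other genes in the reference annotation of GRCm38.p6, which matters where a probe set cannot tell them apart. The span of Bcl2l11 overlaps that of Acoxl, whose own probe set differed by -0.01 ± 0.10 (SE, limma adjusted p = 0.96). That probe set was dim, with means of 6.01 on the caffeine-plus and 6.02 on the caffeine-minus arrays. These lie below the 95th percentile of olfactory receptor genes (6.26), so a change in Acoxl could be missed. The span of Bcl2l1 overlaps that of Cox4i2, which differed by -0.13 ± 0.11 (SE, limma adjusted p = 0.43). Other genes that overlap a member were not measured on their own here: the transcribed pseudogene Gm32211 for Bcl2l1, Ggnbp1 for Bak1, the pseudogene Gm17812 for Bid, and Mir3473f and Gm37053 for Bcl2.

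The other genes of the family and its binding partners were measured for 16 of 19 listed symbols, of which 6 fell, 1 rose and 9 did not pass, with a median log2 difference of -0.16. The 7 calls are 43.8% of these genes, against 37.9% of all genes, and all 7 are among the 14 above the median level, where 62.6% of all genes were called. Bcl2l15, which encodes the BCL2-like protein BFK, fell the most. It read 6.23, 6.75 and 6.37 on the caffeine-plus arrays against 7.72, 7.44 and 7.28 on the caffeine-minus arrays, with no overlap between groups. The log2 difference was -1.03 ± 0.14 (SE, limma adjusted p = 1.4e-05). Bcl2l15 was dim on the caffeine-plus arrays, with a mean of 6.45, so the size of its fall is uncertain. The survival gene Bcl2l2, which encodes BCL-W, was 1.36-fold lower and the BH3-only gene Bad 1.37-fold lower. Bcl2l12 and Bnip3l, which encodes the mitophagy receptor NIX, were 1.29-fold and 1.19-fold lower. The limma adjusted p of these 4 genes lay between 0.00072 and 0.0059. A dimmer Bnip3l probe set differed by -0.44 ± 0.18 (SE, limma adjusted p = 0.12 with every probe set tested). Bnipl was 1.31-fold lower (limma adjusted p = 0.015). It did not pass without caffeine-plus array 1 (limma adjusted p = 0.11), without caffeine-minus array 1 (0.056) and when every probe set was tested (0.064), with a range of 0.0035 to 0.11 over 16 settings. Bnip1, which encodes a BH3-containing SNARE protein of the endoplasmic reticulum, was the one rise, at 1.54-fold (log2 difference 0.63 ± 0.10, SE, limma adjusted p = 6.5e-05).

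The BH3-only genes Bik and Hrk differed by -0.08 ± 0.12 and -0.03 ± 0.13, and the effector-like gene Bok by 0.02 ± 0.09 (SE), all with overlapping groups. Bcl2l13, Bcl2l14, Bcl2l10 and Bnip3 differed by 0.07, -0.12, -0.19 and -0.08. Bnip2 differed by -0.14 ± 0.06 (SE, limma adjusted p = 0.086) and passed under 3 of 16 settings, without caffeine-minus array 3 (0.00055), with array weights (0.015) and among genes above the median level (0.0499). Bcl2a1c, a copy of the gene of the neutrophil survival protein A1, differed by -0.30 ± 0.14 (SE, limma adjusted p = 0.13). Its caffeine-minus arrays read 7.41, 7.22 and 6.70, and without array 3 of that group it passed with a difference of -0.50 (limma adjusted p = 0.00083), as it did with array weights (0.021). The copies Bcl2a1a, Bcl2a1b and Bcl2a1d had only probe sets shared by several genes, and Bcl2a1c was on 2 such probe sets besides its own. Shared probe sets were not used, so the value is of Bcl2a1c alone and not of A1 as a whole.

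**Figure D3:**
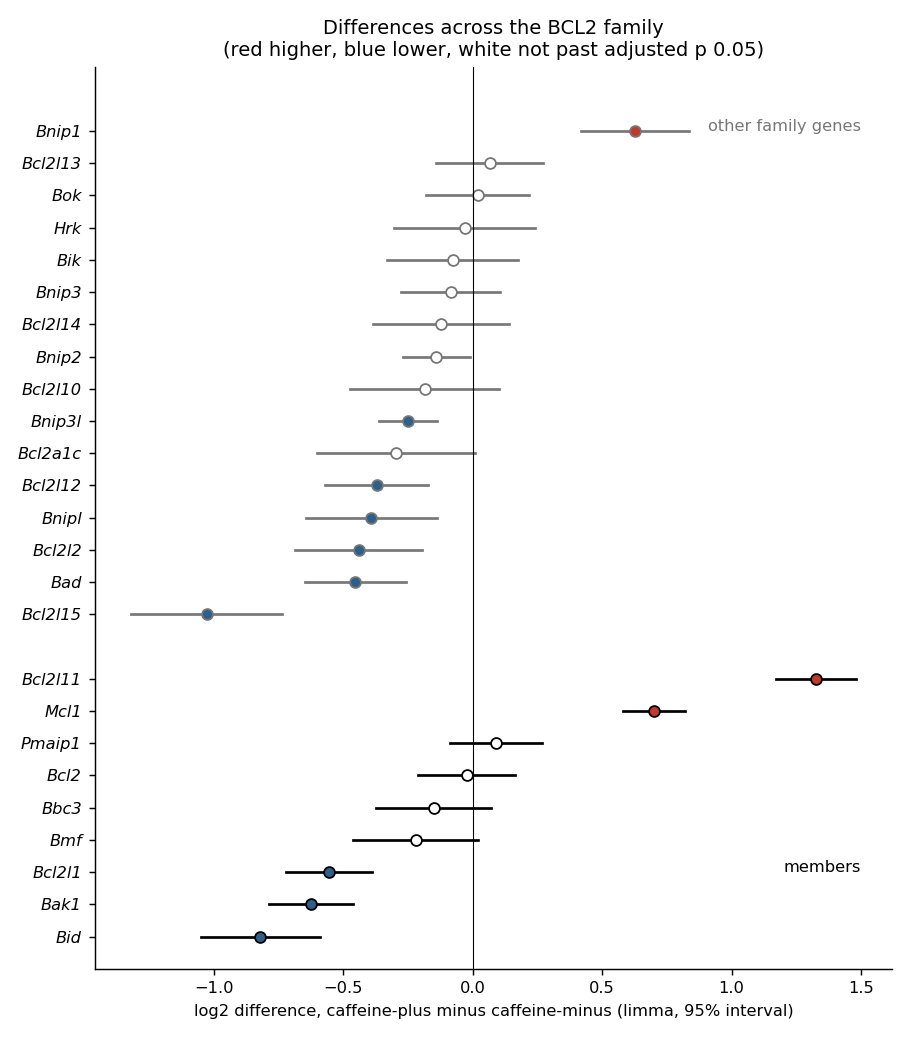
Log2 difference (caffeine-plus minus caffeine-minus) with its 95% interval from limma for the 9 members (black, lower block) and the 16 other family genes (grey, upper block); red points were higher, blue lower and white not past an adjusted p of 0.05. Bcl2l11, Mcl1 and Bnip1 lie at or above 0.63, and 9 lie to the left of 0 with a call.

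Genes that act on the family or downstream of it were described in 5 lists, whose counts stand against 37.9% called over all genes and 62.6% above the median level. Most listed genes were above that level. Of 12 measured transcription factor genes known to induce BH3-only genes 6 rose and 0 fell (1, Cebpb, was lower at an unadjusted limma p under 0.05), with a median of 0.33, and 6 of the 10 above the median level were called. Those with the smallest p were Atf3 (3.10-fold higher), Atf4 (2.28-fold) and Ddit3 (2.51-fold), which serve the integrated stress response, and the forkhead gene Foxo1 (1.66-fold). Of 17 genes for kinases and turnover factors that act on BCL2 family proteins 8 rose and 3 fell, with a median of 0.10, and 11 of the 16 above the median level were called. The phosphatase gene Ppp2ca, the JNK gene Mapk8 and the p38 gene Mapk14 were 1.87-fold, 1.81-fold and 1.75-fold higher, and the co-chaperone gene Bag1 was 1.58-fold lower.

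Of 14 genes of the mitochondrial pathway downstream of BAX and BAK 3 rose and 6 fell, with a median of -0.16. Of the 13 above the median level 9 were called, against 62.6% of all genes above it. Htra2, a protease released from mitochondria, was 2.60-fold lower (log2 difference -1.38 ± 0.08, SE, limma adjusted p = 3.4e-09). Cycs, the cytochrome c gene, was 1.44-fold lower and the caspase inhibitor gene Xiap 1.80-fold lower, while Vdac2, whose channel protein holds BAK at the mitochondrial membrane, was 1.54-fold higher. In the death receptor arm that leads to BID 1 of 11 rose and 3 fell, with a median of -0.18, and 4 of the 8 above the median level were called. The TRAIL receptor gene Tnfrsf10b was 1.98-fold, the adaptor gene Fadd 1.60-fold and the caspase 8 inhibitor gene Cflar 1.17-fold lower, and Casp8, which cleaves BID, was 1.23-fold higher. Tnfrsf10b was dim, with a mean of 6.25 on the caffeine-plus arrays, so the size of its fold is uncertain. The count of falls was 5 with the replicate number as a block and without caffeine-minus array 2.

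Of 18 genes of granulocyte survival cytokine signalling 9 rose and 4 fell, with a median of 0.11. All 18 were above the median level, and 13 (72.2%) were called, against 37.9% of all genes and 62.6% of those above that level. The kinase gene Jak2 was 1.97-fold higher, the PI3-kinase regulatory gene Pik3r1 1.94-fold higher and Stat3 1.40-fold higher, and the catalytic gene Pik3cg was 1.74-fold lower. Without caffeine-plus array 1, 5 of the 18 were called higher.

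**Figure D4:**
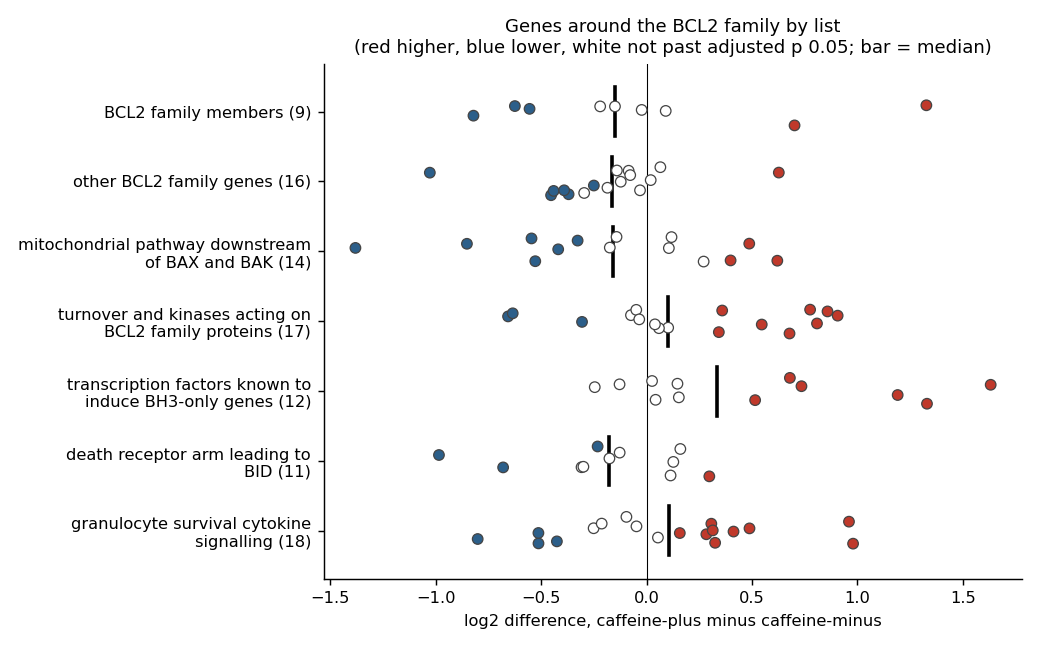
Log2 difference (caffeine-plus minus caffeine-minus) of each measured gene in the family and in 5 lists around it, with the number of genes in parentheses; red points were higher, blue lower, white not past an adjusted p of 0.05, and the black bar is the median of the list. Medians run from -0.18 in the death receptor arm to 0.33 among the transcription factors.

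The genes whose profile over the 6 arrays was most like that of Bcl2l11, by the root mean square difference after centring each gene on its mean, were Tmem131l (0.03), the RNA-binding protein gene Fmr1 (0.04) and the phosphatase gene Dusp1 (0.04). Their log2 differences were 1.28, 1.28 and 1.38. Those most like Bid were Idua (0.05), Zfp940 (0.06) and Exoc7 (0.06), with log2 differences of -0.80, -0.87 and -0.75. With 6 arrays in 2 groups, this likeness is set mainly by the difference between groups.

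All 9 members had a mean level above the 95th percentile of 1027 olfactory receptor genes (6.26), which serve as a rough guide to dim probe sets, with Bbc3 the nearest at 6.46. Of the 16 other family genes 14 were above it, and of the 11 death receptor genes 8 were. The array medians lay between 6.49 and 6.60. All 16 markers of granulocytes and neutrophil precursors were above the same guide, and all 16 fell in the caffeine-plus cells. Their mean level was 9.37 to 9.41 on the caffeine-plus arrays and 9.95 to 10.07 on the caffeine-minus arrays. Their levels ran from the 44.2 percentile of all genes (Mmp9) to the 99.8 percentile (Mpo), with Ly6g at 65.4 and S100a9 at 99.4. The mix of stages and cell types in the cultures was not tested. Of 7 monocyte, macrophage and dendritic cell markers 6 fell and 1 rose, with a mean level of 7.94 to 8.01 against 8.51 to 8.69. Among 6 markers of eosinophils, basophils and mast cells there were 3 falls and 1 rise (8.63 to 8.68 against 9.12 to 9.24), and of 4 megakaryocyte markers 1 fell (6.48 to 6.60 against 6.86 to 6.93). The megakaryocyte marker that fell was Ppbp (log2 difference -1.08), while Itga2b, Pf4 and Gp9 differed by -0.10, -0.12 and -0.07 and did not pass. B cell, T and NK cell and erythroid markers gave 1 fall of 4, 0 calls of 5 (0 at an adjusted limma p under 0.05 and 1 at an unadjusted one) and 1 fall of 3. Beside these counts, 21.7% of all genes were called lower and 16.2% higher. These arrays cannot tell fewer cells of a type from less RNA per cell, and the part of such shifts in the members' differences was not tested.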

How the data were processed

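In all, 6 arrays, 3 per group, were compared. The values deposited by the authors were treated as log2, because they lie between 1.90 and 13.98. They were also taken as already normalized between arrays, an assumption that this range does not test. Their unit is not stated. Summarization, background correction and normalization between arrays were steps not given in the sources used here. Per the labels' protocols, 300 ng of Trizol-extracted total RNA was labelled with the Encore Biotin Module. The values are relative and cannot show a change in total mRNA per cell, and the number of arrays limits the precision.

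Of 34760 probe sets, 21640 have 1 gene symbol in the platform annotation, 1321 have several and 11799 are not listed. Symbols were updated for 21553 through their gene identifiers (RefSeq genes, GRCm38.p6). Each gene was taken at its brightest single-gene probe set. The test was limma 3.58.1 under R 4.3.3, with an intensity trend in eBayes, two-sided, with Benjamini-Hochberg adjustment over 19937 genes and a threshold of 0.05. Its code was tried on simulated arrays with independent noise and few changed genes. Such a trial does not show how the test fares on these data. Differences are caffeine-plus minus caffeine-minus.

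The members, lists and tests were chosen with earlier results of these data known. Named are all members, all other family genes, the 4 genes of each list with the smallest p past the threshold, and the 3 genes most like the member with the largest rise and the one with the largest fall. The 16 alternatives were the replicate block, quantile normalization, centring on array medians, 2 filters on dim genes, the mean of probe sets, every probe set tested, 3 variance models and each array left out.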

Additional observations from a re-analysis of the deposited data

How the results depend on the processing

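The 5 calls among the members (Mcl1, Bcl2l11, Bcl2l1, Bak1 and Bid) kept their direction and their side of the threshold under all 16 alternatives, with log2 differences of 0.65 to 0.76 for Mcl1, 1.26 to 1.39 for Bcl2l11, -0.58 to -0.50 for Bcl2l1, -0.70 to -0.57 for Bak1 and -0.93 to -0.73 for Bid. The sizes of their p-values were less stable. The largest limma adjusted p over the alternatives was 0.000107 for Mcl1, 1.8e-05 for Bcl2l11, 0.00062 for Bcl2l1, 0.000595 for Bak1 and 0.0013 for Bid. Bbc3 was below the median level and had 15 alternatives. The replicate numbers were not taken to pair the arrays: deviations of same-numbered arrays correlated at -0.04, 0.10 and 0.21, and 2 of 3 caffeine-plus arrays were best matched by their own number. With the replicate number as a block, the calls over all genes were 3388 higher and 4660 lower against 3229 and 4325, and 2 members were higher and 3 lower as before. In that fit 5 death receptor genes and 1 transcription factor gene were lower. The count of lower transcription factor genes was also 1 among genes above the 25th percentile of level and among those above the median level. With arrays centred on their medians, the calls over all genes were 3674 higher and 3749 lower. After quantile normalization they were 3381 higher and 4342 lower. The excess of falls over rises among all genes thus shrank with median centring but stayed after quantile normalization. Leaving out 1 array gave 0 to 1 lower transcription factor genes, 2 to 5 lower death receptor genes and 5 to 9 higher cytokine signalling genes. Uncalled genes near 0 changed sign. After quantile normalization Bcl2 was 0.019 and Hrk 0.013, and with arrays centred 0.036 and 0.028. With 1 array left out, Bcl2 ran from -0.065 to 0.020, Hrk from -0.157 to 0.105, Bik from -0.191 to 0.017, Bok from -0.029 to 0.059, Bcl2l13 from -0.003 to 0.127, Bcl2l14 from -0.196 to 0.001 and Bnip3 from -0.168 to 0.009. The cause of these changes was not tested.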
